A study of Mus musculus with 9 samples.

Results

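The genes described here are those of the MHC class II presentation pathway, 7 in number: H2-Aa, H2-Ab1, H2-Eb1, H2-DMa, H2-DMb1, Cd74 and Ciita. They were chosen by name, and a gene was given values where the array's annotation tied a probe set to that gene alone. This left 6 of the 7, out of 19938 genes tested in the series, each with 1 probe set. The only probe set of H2-DMb1, a chain of the peptide-exchange factor DM, is shared with H2-DMb2, so no value is given for it. RNA of 9 samples, 3 in each of 3 groups, was hybridised to whole-transcript mouse arrays. The AS cell lines are 3 separately derived angiosarcoma lines. Each was grown by long-term culture of endothelial cells taken from the liver of a Notch1 knockout mouse that bore such a tumour, a cancer of vessel-lining cells. The KO livers came from mice with loxP-flanked Notch1 and MxCre, a Cre recombinase switched on by the interferon response. The WT livers came from mice with the same loxP-flanked Notch1 and no Cre. All were labelled C57Bl/6. The liver donors of both genotypes were 4 weeks old when they had the first of 3 injections of poly(I:C), synthetic RNA that triggers interferon, each of 300 µg and given on days 0, 3 and 6. The KO and WT livers thus share this treatment, no untreated liver was part of the series, and MxCre acts in many cell types, blood cells included. The labels call the samples liver, while the extraction protocol names PHH, left unexplained, so whether whole liver was extracted is not settled. Only the KO mice carried Cre, so an effect of Cre and one of Notch1 loss cannot be told apart. Each animal or line is 1 array, and the precision of all values is limited by how few arrays there are.

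MHC class II molecules carry peptides from engulfed material to the cell surface, where CD4 T cells read them. H2-Aa and H2-Ab1 encode the alpha and beta chains of the I-A molecule, and H2-Eb1 the beta chain of I-E. Cd74 encodes the invariant chain, which guides new class II molecules to endosomes and fills their groove. The DM molecule, made of H2-DMa and an H2-DMb chain, then exchanges the invariant chain remnant for peptides. Ciita is the coactivator on which transcription of these genes depends. It binds no DNA itself and docks on RFX, CREB and NF-Y, which bind the X and Y boxes of class II promoters. In liver, Kupffer cells, dendritic cells and B cells carry class II, sinusoidal endothelium carries some, and hepatocytes carry little or none.

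The promoters are shown for the letters of the X and Y boxes. Promoter windows from RefSeq on build GRCm38.p6, of 250 bases before and 50 after the start site, were found for 8 of the 12 class II genes of the member list and the related-gene list. Letters close to the X box core (CNNGNAAC) and the Y box (TGATTGG) were searched on both strands. The letters were chosen with these sequences in view, so the counts below describe the windows and test nothing. A joint match was an X core followed on the same strand by a Y box that starts 20 to 50 bases further on. It was found in 6 of the 8 genes: H2-Aa, H2-Eb1, H2-DMb1, H2-Oa, H2-Ob and H2-Eb2. Of all 32851 windows in the table, 39.1% held the X core letters, 7.82% the Y box letters and 0.25% the joint match. In the 6 genes the starts of the X core and the Y box lay 31 to 34 bases apart. The windows of H2-DMa and H2-DMb2 held no joint match, which says only that these letters are not in these windows. Below are the 250 bases before the start site for H2-Aa and H2-Eb1, and the stretch around the boxes for the other 4. Each is written 5′ to 3′ on the gene's strand, with the X core and then the Y box in capitals.
H2-Aa (chr17:34287824-34288073, minus strand): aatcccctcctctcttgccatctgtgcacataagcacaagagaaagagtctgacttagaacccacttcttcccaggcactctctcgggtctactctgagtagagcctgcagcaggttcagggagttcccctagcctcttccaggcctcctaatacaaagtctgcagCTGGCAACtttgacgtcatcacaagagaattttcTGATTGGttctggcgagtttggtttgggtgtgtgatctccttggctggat
H2-Eb1 (chr17:34305617-34305866, plus strand): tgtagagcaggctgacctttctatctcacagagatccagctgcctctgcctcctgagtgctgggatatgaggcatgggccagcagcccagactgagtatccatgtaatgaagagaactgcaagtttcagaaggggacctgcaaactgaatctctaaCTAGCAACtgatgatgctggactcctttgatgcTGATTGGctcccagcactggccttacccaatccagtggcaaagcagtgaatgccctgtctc
H2-DMb1 (chr17:34153084-34153144, plus strand): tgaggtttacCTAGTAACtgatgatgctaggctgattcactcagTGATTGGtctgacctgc
H2-Oa (chr17:34092290-34092350, plus strand): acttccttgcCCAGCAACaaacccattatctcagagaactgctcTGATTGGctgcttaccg
H2-Ob (chr17:34238805-34238862, plus strand): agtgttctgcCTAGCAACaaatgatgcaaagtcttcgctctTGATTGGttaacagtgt
H2-Eb2 (chr17:34325530-34325589, plus strand): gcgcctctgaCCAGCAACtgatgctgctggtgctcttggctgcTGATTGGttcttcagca
The X core started 84 bases before the start site in H2-Aa and 94 in H2-Eb1, and 79, 90 and 97 bases before it in H2-Oa, H2-Ob and H2-DMb1. In H2-Eb2 it lay farther out, at 135 bases. All 6 genes lie on chromosome 17.

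Several facts about the arrays stand beside all that follows. Values are log2 expression, the array medians ran from 6.53 to 6.63, and no detection calls were used, so a value below the median may be background and a fold change against it understates the difference. Notch1 was at 7.84, 8.75 and 8.52 in the KO livers, against 11.69, 11.02 and 11.71 in the WT livers. Its log2 difference of -3.10 had an adjusted p of 0.0995 in limma, and no gene had a smaller one in that comparison. The deleted gene itself thus did not pass 0.05 there. In the AS lines, labelled angiosarcoma, the endothelial markers Cdh5, Pecam1 and Kdr lay between 5.39 and 5.89, while the mean of 10 hepatocyte genes was 9.10, 9.92 and 8.59. Within the hepatocyte list Alb was at 12.31 to 13.67 in the lines, Apob at 11.33 to 11.81 and Hnf4a at 10.35 to 11.10. Cyp2e1, Tat and Tdo2 lay between 4.54 and 6.01. The lines were thus low in Cdh5, Pecam1 and Kdr, markers of the cell type their label names. All 10 of 10 listed endothelial genes were lower in the lines at an adjusted p under 0.05 in limma, against either genotype. Over all genes 10.1% were lower against the KO livers and 11.1% against the WT livers. The level that was left differed between endothelial genes. Ptprb was at 9.51, 7.85 and 8.97 in the lines, and the sinusoidal endothelial gene Flt4 at 8.11, 9.43 and 9.14. The hepatocyte mean ranged from 9.41 to 12.59 in the KO livers and from 11.56 to 12.59 in the WT livers. The Y-linked gene Eif2s3y was at 8.66 in KO replicate 3 and at most 4.02 in the other 5 livers, so the animals differed in sex.

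A class II gene outside the member list, H2-Ea, set the liver arrays apart. It encodes the alpha chain of I-E. C57BL/6 mice carry the H2-b haplotype, in which a promoter deletion silences it, and RefSeq lists it as a transcribed pseudogene. H2-Ea was at 5.41, 5.69 and 5.48 in the AS lines, at 10.44, 11.43 and 10.94 in the KO livers, and at 11.90, 11.65 and 5.72 in the WT livers. It was thus high in 5 of the 6 livers, which goes against the strain label at this gene, and only WT replicate 3 stood near the lines, 4.72 log2 units below the next liver. WT replicate 3 lay more than 1 log2 unit outside all the other livers in 7 genes. Of these, 3 are on chromosome 17: H2-Ea, the platelet-activating factor hydrolase gene Pla2g7 (8.88, against 10.24 to 11.22) and the class II gene H2-Ob (8.73, against 6.81 to 7.65). The others, on other chromosomes and all higher in WT replicate 3, were A1bg (9.97, against 5.06 to 7.16), Igkv9-120 (7.68, against 4.85 to 5.89), Jchain (7.85, against 5.38 to 6.67) and Emb (9.43, against 6.52 to 8.42). The count of genes so far apart was between 5 and 154 in the other livers, of which 0 to 8 were on chromosome 17. These counts were not set against the share of all genes on that chromosome. The H2 haplotype of the mice was not typed. H2-Aa, H2-Ab1 and H2-Eb1 differ in sequence between haplotypes, and how the probes match each of these was not tested. Values without WT replicate 3 are given below where they bear on a result.

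The 6 members were bright in liver, apart from Ciita, and far lower in the AS lines. H2-Aa was at 4.88, 5.20 and 5.02 in the AS lines, at 11.53, 12.29 and 11.86 in the KO livers, and at 12.65, 12.38 and 12.43 in the WT livers. H2-Ab1 was at 5.36, 5.37 and 5.61 in the AS lines, at 11.12, 11.83 and 11.24 in the KO livers, and at 12.19, 11.86 and 12.45 in the WT livers. For both I-A chains every line lay below every liver, and every KO liver lay below every WT liver, although for H2-Ab1 the highest KO liver and the lowest WT liver were close together. H2-Eb1 was at 6.995, 7.21 and 7.33 in the AS lines, at 11.13, 11.63 and 11.38 in the KO livers, and at 12.11, 11.92 and 11.99 in the WT livers. Its order was the same, with no overlap between any 2 groups, but its level in the lines was in the middle of the array, at ranks of 49.8% to 53.7% of all genes. Whether the probe set of H2-Eb1 picks up other transcripts was not tested.

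Cd74, the invariant chain, was at 5.20, 5.24 and 5.32 in the AS lines, at 12.09, 12.71 and 11.99 in the KO livers, and at 12.88, 12.42 and 12.52 in the WT livers. H2-DMa, a chain of the exchange factor, was at 6.06, 7.20 and 6.61 in the AS lines, at 9.9997, 10.81 and 10.15 in the KO livers, and at 10.95, 10.05 and 10.18 in the WT livers. For these 2 genes the lines lay below all livers and the genotypes overlapped. KO replicate 2 and WT replicate 1 were the highest of their groups, as they were for H2-Aa and H2-Eb1. Ciita was at 5.83, 5.91 and 6.03 in the AS lines, at 6.58, 7.06 and 6.65 in the KO livers, and at 6.603, 6.57 and 6.99 in the WT livers. The coactivator was close to the array median in liver and below it in the lines, its span over all 9 arrays was small, and the genotypes overlapped. As a mean of the 6 members per array, the levels were 5.72, 6.02 and 5.99 in the AS lines, 10.41, 11.05 and 10.55 in the KO livers, and 11.23, 10.87 and 11.09 in the WT livers.

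**Figure D1:**
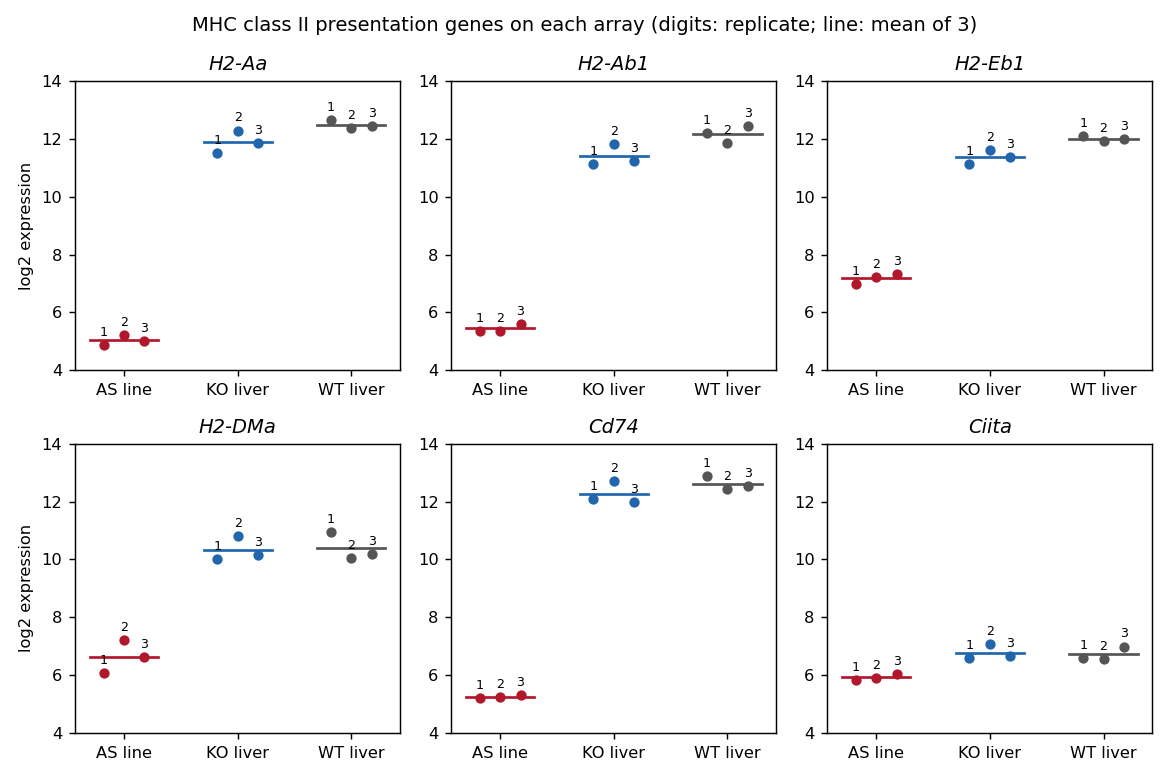
Log2 expression of the 6 measured members on each array, with AS cell lines, KO livers and WT livers from left to right, 1 point per array and a line at the mean of 3. In every panel the 3 lines lie below all 6 livers, with mean H2-Aa at 5.03 in the AS lines, against 11.89 in the KO and 12.49 in the WT livers, while Ciita spans a narrow range.

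The 3 members that encode chains of I-A and I-E had lower values in the KO livers than in the WT livers, without overlap. They did not pass the threshold over all genes. H2-Aa averaged 11.89 ± 0.38 in the KO livers and 12.49 ± 0.14 in the WT livers (SD, n = 3 each). The log2 difference of -0.60 (SE 0.205, 95% interval -1.11 to -0.09) had an adjusted p of 0.181 in limma with Benjamini-Hochberg adjustment. H2-Ab1 averaged 11.40 ± 0.38 in the KO livers and 12.17 ± 0.30 in the WT livers (SD, n = 3 each), a difference of -0.77 (SE 0.240, interval -1.36 to -0.17, adjusted p in limma 0.158). H2-Eb1 averaged 11.38 ± 0.25 in the KO livers and 12.01 ± 0.10 in the WT livers (SD, n = 3 each), a difference of -0.63 (SE 0.142, interval -0.98 to -0.28, adjusted p in limma 0.109). In an exact permutation test of the means each of the 3 gave a 2-sided p of 0.1, the smallest that 3 against 3 arrays allow. The KO livers thus held 66.2%, 58.8% and 64.7% of the WT level of H2-Aa, H2-Ab1 and H2-Eb1. Without WT replicate 3, the array that differed at H2-Ea, the differences were -0.62, -0.62 and -0.64.

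The other 3 members differed less between the genotypes. Cd74 differed by -0.35 (SE 0.228, interval -0.91 to 0.22, adjusted p in limma 0.399), and its exact permutation p was 0.3. Without KO replicate 2 the Cd74 difference was -0.57 and without KO replicate 3 or WT replicate 1 it was -0.21. H2-DMa differed by -0.07 (SE 0.319, interval -0.86 to 0.72, adjusted p in limma 0.898) and Ciita by 0.05 (SE 0.177, interval -0.39 to 0.49, adjusted p in limma 0.886). Both had an exact permutation p of 0.6. The intervals are wide, so a difference of nearly 1 log2 unit in H2-DMa is within what these arrays allow. The sign of the H2-DMa and Ciita differences changed when single arrays were left out.

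Counted together, 0 of 6 members passed an adjusted p of 0.05 in KO against WT livers, where 0% of all genes passed in either direction. An unadjusted p under 0.05 in limma was reached by 3 of 6 members, all lower, against 5.17% of all genes in that direction. The groups did not overlap in 3 of 6, all lower, against 11.1% of all genes in that direction. The median difference was -0.47 for the members and -0.0011 for all genes. Leaving out KO replicate 2, the highest KO liver for all 6 members, took H2-Aa (adjusted p 0.0427), H2-Ab1 (0.0473) and H2-Eb1 (0.0301) past the threshold in limma. In that fit 1.39% of all genes passed as lower and 8.38% as higher. With limma's array weights the same 3 members passed (adjusted p 0.0207, 0.0357 and 0.0115), in a fit where 9.22% of all genes passed as lower and 19.6% as higher.

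**Figure D2:**
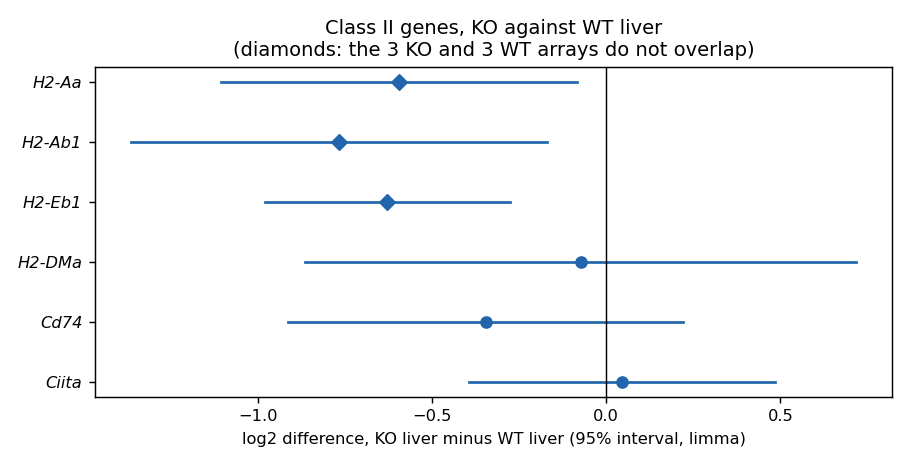
Log2 difference of each member, KO liver minus WT liver, with the 95% interval from limma; diamonds mark genes whose 3 KO and 3 WT arrays do not overlap and circles those that overlap. H2-Aa, H2-Ab1 and H2-Eb1 lie between -0.60 and -0.77 with intervals below 0, and the other 3 intervals span 0.

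Markers of the cells that carry class II were measured on the same arrays. In bulk RNA, fewer cells of a type and less RNA per cell cannot be told apart. The mean of 8 pan-leukocyte genes, Ptprc (CD45) among them, was 10.13, 10.61 and 10.18 in the KO livers, against 10.66, 10.68 and 10.85 in the WT livers. The genotypes did not overlap in this mean, all 8 genes had negative differences, and in 2 of the 8, Cd52 and Rac2, no KO array reached a WT array, where 11.1% of all genes were lower without overlap. The mean of 9 B cell genes was 6.29, 6.57 and 6.31 in the KO livers and 6.53, 6.94 and 7.20 in the WT livers. All 9 had negative differences, and 3 of the 9, Ms4a1, Pax5 and Cr2, were lower without overlap, against 11.1% of all genes. Of these 3, Cr2 lay below the array medians in all 6 livers, at 4.68 to 4.79 in the KO livers and 4.88 to 4.98 in the WT livers. Ms4a1 lay below them in the KO livers, at 4.82 to 5.14, and in WT replicate 1, at 5.23. Pax5 was near or below them in the KO livers, at 6.26 to 6.54. Its highest KO array (6.544) lay just under its lowest WT array (6.551). The antigen receptor component Cd79b was at 7.71, 8.59 and 7.90 in the KO livers and 8.51, 8.97 and 9.27 in the WT livers, with KO replicate 2 just above WT replicate 1.

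The mean of 12 Kupffer cell and macrophage genes was 11.13, 11.77 and 11.14 in the KO livers and 11.66, 11.14 and 11.06 in the WT livers. It overlapped between the genotypes, and it was highest in KO replicate 2 and WT replicate 1. Within their groups these arrays were also the highest for Cd74, H2-DMa, H2-Aa and H2-Eb1, while H2-Ab1 and Ciita were highest in WT replicate 3 among the WT livers. The mean of 12 dendritic cell genes was 7.84, 8.01 and 7.88 in the KO livers and 7.89, 8.04 and 8.22 in the WT livers, which also overlapped. Within that list 4 of 12 genes were lower and 2 of 12 higher without overlap, against 11.1% and 19.2% of all genes. The largest of them were Ccr7, a chemokine receptor of migrating dendritic cells, at -1.26 and Clec9a, a receptor of cross-presenting dendritic cells, at 1.18. The mean of 9 sinusoidal endothelial genes was 12.68, 12.54 and 12.79 in the KO livers and 12.59, 12.47 and 12.47 in the WT livers. This mean overlapped between the genotypes as well. Of these 9 genes 7 had positive differences, and 5 were higher and 1 lower without overlap, against 19.2% and 11.1% of all genes. T and NK cell genes, whose mean was 6.56, 6.61 and 6.77 in the KO livers and 6.42, 8.46 and 8.35 in the WT livers, set WT replicate 1 with the KO livers. Of these 6 lists 0 genes passed the threshold in this comparison, where 0% of all genes passed. The part of each cell type in the class II differences was not tested.

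**Figure D3:**
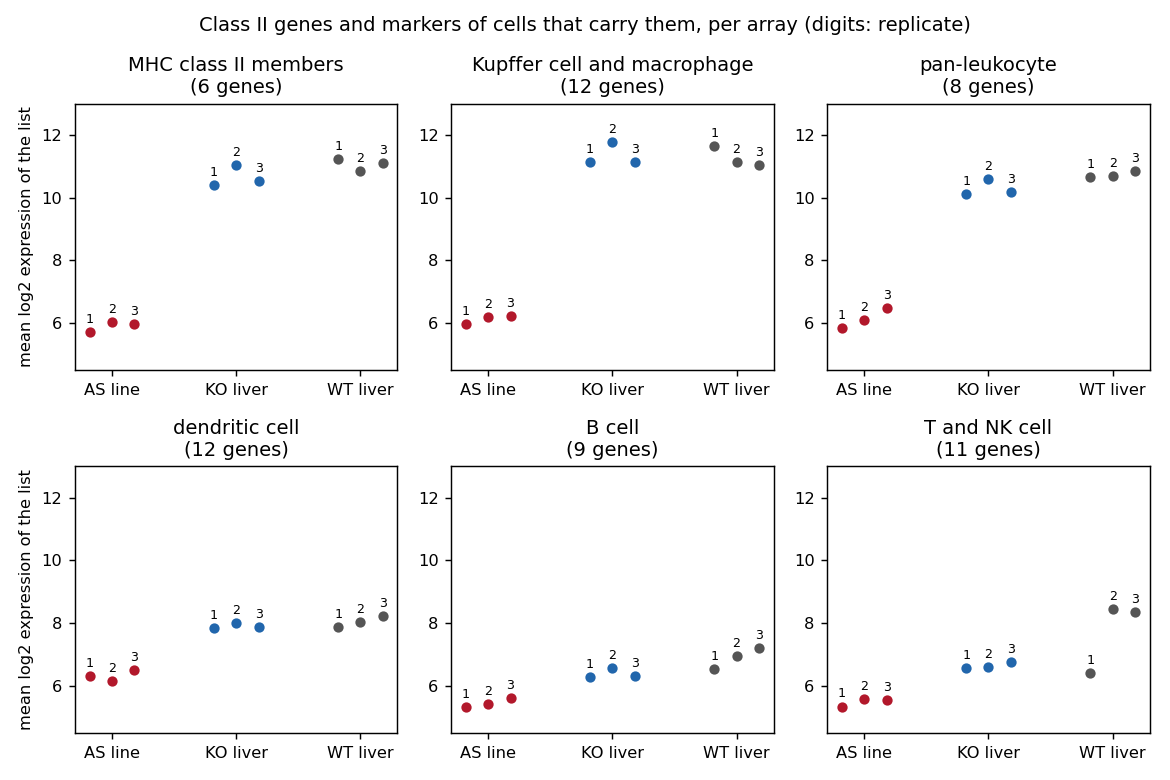
Mean log2 expression per array of the 6 members and of 5 marker lists (number of genes in each title), with AS cell lines, KO livers and WT livers from left to right and 1 point per array. The AS lines are the lowest in every panel, the pan-leukocyte mean separates KO from WT livers as 10.13 to 10.61 against 10.66 to 10.85, and the Kupffer mean overlaps.

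In the AS lines all 6 members were lower than in the KO livers. Notch1 was at 8.75, 8.61 and 7.83 in the AS lines, the range of the KO livers. Cd74 averaged 5.25 ± 0.06 in the AS lines and 12.26 ± 0.39 in the KO livers (SD, n = 3 each), 129-fold lower (log2 difference -7.01, SE 0.203, adjusted p in limma 5.7e-05). H2-Aa fell by 6.86 (SE 0.215, 116-fold) and H2-Ab1 by 5.95 (SE 0.210, 62.0-fold) on the log2 scale. H2-Eb1 fell by 4.20 (SE 0.161, 18.4-fold), H2-DMa by 3.70 (SE 0.359, 12.96-fold) and Ciita by 0.84 (SE 0.150, 1.79-fold). The adjusted p in limma was 0.0155 for Ciita, 0.00237 for H2-DMa and at most 0.000117 for the others, and every exact permutation p was 0.1. All 6 of 6 passed as lower, against 10.1% of all genes, and all 6 lacked overlap in that direction, against 16.7%. The median of the members was -5.08 and that of all genes 0.05.

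Against the WT livers the same AS arrays gave the same direction, so these 2 comparisons share the lines. H2-Aa was 176-fold lower in the AS lines (log2 difference -7.46, SE 0.127), Cd74 164-fold (-7.35, SE 0.141) and H2-Ab1 105-fold (-6.72, SE 0.175). H2-Eb1 was 28.4-fold lower (-4.83, SE 0.118), H2-DMa 13.6-fold (-3.77, SE 0.369) and Ciita 1.74-fold (-0.80, SE 0.141, adjusted p in limma 0.0103). All 6 of 6 passed as lower, against 11.1% of all genes, and all 6 lacked overlap, against 19.5%. The median of the members was -5.78 and that of all genes 0.02. Among the lines, line 1 was lowest in all 6 members. H2-DMa varied most between the lines, with an SD of 0.57, and Cd74 least, with an SD of 0.06.

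Leukocyte genes were low in the lines as well. The Kupffer list averaged 5.97, 6.19 and 6.24 in the AS lines, against 11.13 to 11.77 in the KO livers and 11.06 to 11.66 in the WT livers, and 12 of 12 genes fell in both comparisons, where 10.1% of all genes fell against the KO livers and 11.1% against the WT livers. The pan-leukocyte list averaged 5.86, 6.11 and 6.47 in the AS lines, and 8 of 8 genes fell in both. The macrophage marker Adgre1 was at 5.46 in all 3 lines and Ptprc at 5.25, 5.47 and 5.68. Of the dendritic cell list 9 of 12 genes fell against the KO livers and 11 of 12 against the WT livers, and of the B cell list 4 of 9 and 3 of 9. Spi1, the transcription factor of myeloid cells and B cells, was at 5.28, 5.68 and 5.01 in the AS lines, against 10.25 to 11.24 in the KO livers and 10.05 to 11.02 in the WT livers. The sinusoidal endothelial genes also fell, 9 of 9 in both comparisons. The lines are cultured cells and the livers hold many cell types. How much of the class II difference goes with these cells was not tested.

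The other class II genes were measured from a list of 5, of which 4 had a probe set of their own. H2-Oa and H2-Ob encode the chains of DO, which restrains DM in B cells, and H2-Eb2 is a second beta chain gene of the E type. Against the KO livers all 4 fell in the AS lines, where 10.1% of all genes fell. H2-Ea fell by 5.41 (adjusted p in limma 0.000244), H2-Ob by 0.82 (0.00287), H2-Eb2 by 0.55 (0.0136) and H2-Oa by 0.50 (0.0379) on the log2 scale. The call of H2-Oa was lost without any 1 of the 6 arrays (adjusted p up to 0.0902), and that of H2-Eb2 without KO replicate 1 (0.0525) or KO replicate 3 (0.0558). With all 9 arrays in 1 fit the calls of H2-Ob (0.102), H2-Oa (0.126) and H2-Eb2 (0.331) were lost. Against the WT livers H2-Ob fell by 1.87 (adjusted p in limma 0.0159) and H2-Oa by 0.92 (0.0353), while H2-Eb2 differed by -1.30 (0.0707; 0.0273 without WT replicate 1). Without AS line 3 the adjusted p of H2-Ob was 0.0509, and the call of H2-Oa was lost without any 1 array other than WT replicate 1 (adjusted p up to 0.116). H2-Ea differed by -4.23 (adjusted p in limma 0.123), and by -6.25 (0.000306) without WT replicate 3.

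Between the genotypes 0 of these 4 genes passed the threshold. H2-Ob was at 6.81, 6.90 and 6.81 in the KO livers, against 7.28, 7.65 and 8.73 in the WT livers. The groups did not overlap, and the difference was -1.05 (adjusted p in limma 0.187), or -0.63 (0.221) without WT replicate 3, its highest array. H2-Eb2 was at 5.69, 5.82 and 5.71 in the KO livers and at 5.69, 6.40 and 7.39 in the WT livers (difference -0.75, adjusted p in limma 0.335). Without WT replicate 3 that difference was -0.31 (0.479) and without WT replicate 1 it was -1.16 (0.159). H2-Ea differed by 1.18 (SE 1.72, adjusted p in limma 0.689), and by -0.84 (0.267) without WT replicate 3.

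**Figure D4:**
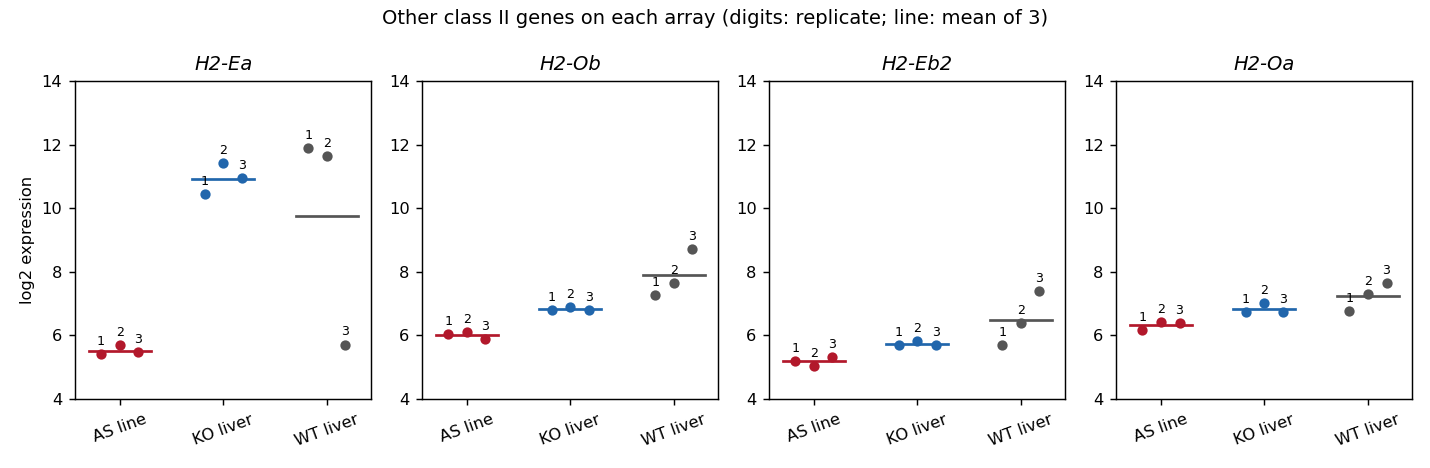
Log2 expression of 4 further class II genes on each array, with AS cell lines, KO livers and WT livers from left to right, digits for replicates and a line at the mean of 3. H2-Ea is high in 5 livers and at 5.72 in WT replicate 3, where H2-Ob is highest at 8.73.

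The factors that bind class II promoters were measured as a list of 7. Of these, the RFX subunits Rfx5, Rfxap and Rfxank, the NF-Y subunits Nfya, Nfyb and Nfyc, and Creb1, 0 passed in either direction in AS lines against KO livers, with a range of -0.48 to 0.28. Over all genes 10.1% passed as lower and 11.4% as higher there. Creb1 passed as lower with array weights (-0.63, adjusted p in limma 0.0305), and Rfxank as higher with array weights (0.0474) or without AS line 1 (0.0302). Against the WT livers, where 17.6% of all genes passed as higher, the 3 RFX subunits passed as higher in the AS lines. Rfx5 rose by 0.29 (adjusted p in limma 0.0370), Rfxap by 0.33 (0.0390) and Rfxank by 0.40 (0.0464), but each lost the call in 11 or 12 of 17 alternatives. All 3 calls were lost with 75th percentile scaling of the arrays (adjusted p 0.355, 0.280 and 0.221), under which the median over all genes was -0.11, with the replicate block, the intensity trend, dim genes left out or repeated quantile normalization, and without AS line 2, AS line 3, WT replicate 2 or WT replicate 3. Rfx5 and Rfxap lost it also without AS line 1, and Rfxap and Rfxank without WT replicate 1. In KO against WT livers 0 of 7 passed. Rfx5 was at 7.72, 7.67 and 7.98 in the KO livers, against 7.46, 7.37 and 7.39 in the WT livers, a difference of 0.39 without overlap (adjusted p in limma 0.122), or 0.23 with 75th percentile scaling.

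Of 9 antigen processing genes 4 fell and 0 rose in each comparison of the AS lines. Over all genes 10.1% fell and 11.4% rose against the KO livers, and 11.1% fell and 17.6% rose against the WT livers. Ctss, the cathepsin that trims the invariant chain in antigen-presenting cells, was at 5.17, 5.29 and 5.39 in the AS lines, against 10.56, 11.33 and 10.74 in the KO livers and 11.32, 10.77 and 10.68 in the WT livers. It fell by 5.59 against the KO livers (adjusted p in limma 0.000117) with no overlap, and the genotypes overlapped. The endosomal proteases Lgmn and Ctsb fell by 2.06 (0.00997) and 1.20 (0.0129), and Marchf1, a ubiquitin ligase that removes class II from the surface, by 0.79 (0.0229). The call of Marchf1 was lost without any 1 array other than AS line 2 (adjusted p up to 0.0874, and up to 0.110 against the WT livers), and that of Ctsb without KO replicate 3 (0.0551). Ctsl, a cathepsin of many cell types, was at 11.90, 12.80 and 11.47 in the AS lines, against 12.29, 12.32 and 12.57 in the KO livers (difference -0.34, adjusted p in limma 0.567). Ifi30, a thiol reductase of endosomes, was at 7.40, 10.78 and 10.16 in the AS lines, so line 1 stood far below the other 2, and the difference of -2.14 from the KO livers did not pass (adjusted p in limma 0.170).

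The ligands of T cell costimulation also fell in part: 4 of 6 fell and 0 rose in each comparison of the AS lines. The share of all genes that fell was 10.1% against the KO livers and 11.1% against the WT livers. Cd86 was at 4.94, 4.93 and 5.11 in the AS lines, against 9.23, 10.13 and 9.33 in the KO livers, and fell by 4.57 (adjusted p in limma 0.000386). Cd80 fell by 3.71 (0.00214), Cd274, the inhibitory ligand PD-L1, by 2.39 (0.00899) and Icosl by 0.96 (0.00335). Cd40 differed by -1.34 (0.108) and Pdcd1lg2 by 0.07 (0.596). Between the genotypes 0 of 6 passed. Icosl was at 7.54, 7.69 and 7.62 in the KO livers, against 8.10, 8.67 and 8.41 in the WT livers, a difference of -0.78 without overlap (adjusted p in limma 0.102).

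Class I presentation, which shows peptides made inside the cell to CD8 T cells, kept its light chain at a high level in the lines. B2m was at 12.93, 13.40 and 13.22 in the AS lines, at 13.36, 13.47 and 13.41 in the KO livers, and at 13.78, 13.44 and 13.54 in the WT livers. Its difference from the KO livers was -0.23 (adjusted p in limma 0.307). Of 13 measured class I genes 8 fell and 0 rose in both comparisons of the AS lines. Among all genes 10.1% fell against the KO livers and 11.1% against the WT livers. Against the KO livers the peptide transporter genes Tap1 and Tap2 fell by 2.98 (0.0136) and 1.37 (0.0213), and Tapbp, which holds class I to the transporter, by 1.02 (0.0166). The immunoproteasome subunits Psmb8, Psmb9 and Psmb10 fell by 2.13 (0.0396), 1.97 (0.0159) and 1.35 (0.0146). The trimming peptidase Erap1 fell by 0.90 (0.00736), and Nlrc5, the coactivator of class I genes, by 0.52 (0.0187). Leaving out KO replicate 3 took 7 of these 8 past 0.05, with adjusted p from 0.0597 to 0.128, and left Erap1 called. Leaving out KO replicate 1 took 6 of them past it, Psmb9 and Erap1 remaining called. Tap2, Tapbp, Psmb8, Psmb9 and Nlrc5 were lost also without KO replicate 2 (adjusted p from 0.0505 to 0.106), Tap2 and Psmb8 without AS line 3 (0.0640 and 0.105), and Psmb8 without AS line 1 (0.0564). Nlrc5 has 19 probe sets, of which the one of highest mean was used, and its difference ran from -1.22 to -0.43 over the alternatives. Its call was lost also with the replicate block (adjusted p in limma 0.0576) or the intensity trend (0.0550). Against the WT livers Tap2, Psmb8 and Erap1 lost their calls without WT replicate 2 or WT replicate 3 (adjusted p from 0.0560 to 0.0758), Psmb8 also without WT replicate 1 (0.0623) or AS line 3 (0.0610), and Erap1 without AS line 3 (0.0517).

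The lines differed from each other in these genes. Tap1 was at 6.08, 8.07 and 7.26 and Psmb8 at 5.99, 7.98 and 6.77 in AS lines 1, 2 and 3, against 9.94 to 10.28 and 8.80 to 9.21 in the KO livers. Line 1 was the lowest and line 2 the highest in both. Between the genotypes 0 of 13 class I genes passed. Nlrc5 was at 9.98, 9.95 and 9.98 in the KO livers, against 10.45, 10.27 and 10.30 in the WT livers, a difference of -0.37 without overlap (adjusted p in limma 0.102).

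Interferon gamma is the main inducer of Ciita outside the professional antigen-presenting cells, and 8 of 9 listed genes of its pathway were measured. Against the KO livers 4 fell and 1 rose in the AS lines, where 10.1% of all genes fell and 11.4% rose. Irf8, a transcription factor of myeloid cells and B cells, fell by 5.14 (adjusted p in limma 2.9e-05), Irf1, through which interferon gamma acts on Ciita, by 3.39 (0.000168), the feedback inhibitor Socs1 by 2.46 (0.00153) and the kinase Jak1 by 1.79 (0.000861). Ifngr1, the ligand-binding receptor chain, rose by 0.83 (0.00597). Irf1 was at 9.19, 8.77 and 8.93 in the AS lines, against 12.18, 12.39 and 12.49 in the KO livers and 12.46, 11.87 and 12.07 in the WT livers, so the lines lay below all livers and the genotypes overlapped. Against the WT livers the kinase Jak2 fell as well, by 0.86 (0.0249), a call lost without AS line 2 (0.0573), WT replicate 2 (0.0925) or WT replicate 3 (0.0864). Ifng itself was at 6.07, 6.12 and 6.19 in the KO livers, against 6.12, 8.79 and 8.79 in the WT livers. WT replicate 1 stood with the KO livers, as it did for the T and NK cell genes, and the difference of -1.78 did not pass (adjusted p in limma 0.237). Without WT replicate 1 it was -2.66 and passed (adjusted p in limma 0.00343). In that fit 55 of 19938 genes passed as lower and 5 as higher.

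**Figure D5:**
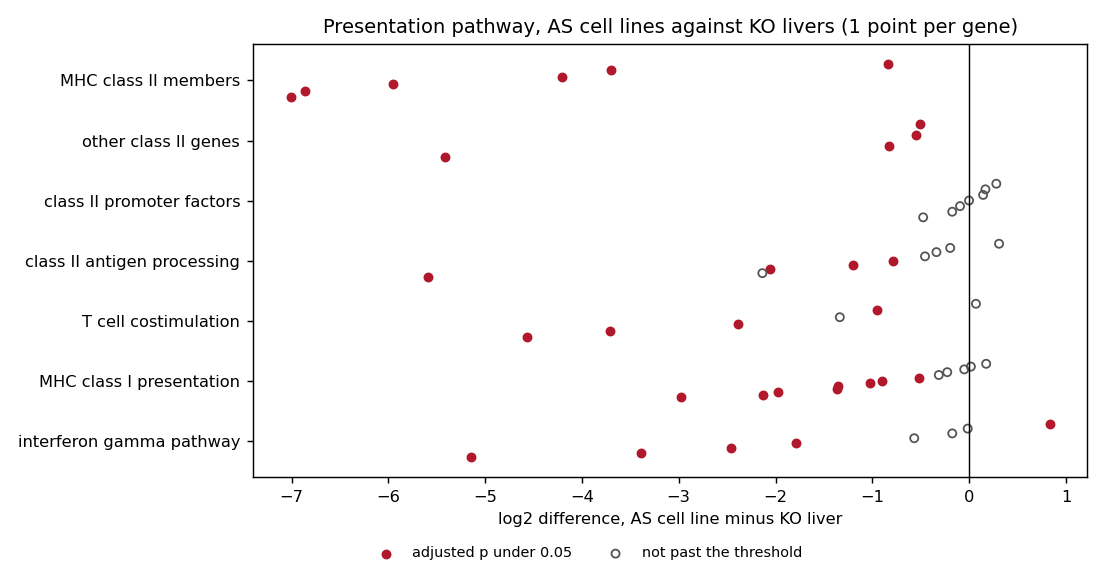
Log2 difference, AS cell line minus KO liver, of the 6 members and of 6 related gene lists, 1 point per gene, filled where the adjusted p in limma was under 0.05. The members reach -7.01 and the promoter factors stay between -0.48 and 0.28.

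Over these 6 lists together, 47 of 51 genes were measured. In AS lines against KO livers 24 were lower and 1 higher past the threshold, with a median of -0.57, where 10.1% of all genes were lower and 11.4% higher. In AS lines against WT livers 23 were lower and 4 higher, with a median of -0.92, where 11.1% of all genes were lower and 17.6% higher. In KO against WT livers 0 passed. The groups did not overlap in 5 that were lower and 2 that were higher, where the shares over all genes were 11.1% and 19.2%, and the median was -0.05.

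The genes whose course over the 6 livers came closest to the mean of the members were ranked by the root mean square difference after centring each gene on its liver mean. The nearest 10 were Id2 (0.0623 log2 units), Slc45a4, Adgrg1, Plbd1, Cst3, Cd84, Glipr1, Ly6g, Cd274 and Laptm5 (0.105). The median over the 19932 other genes was 0.347, and the members themselves ranged from 0.101 for Cd74 to 0.272 for Ciita. Id2, a regulator needed for dendritic cell development, was at 12.10, 12.70 and 12.25 in the KO livers and 12.80, 12.53 and 12.63 in the WT livers. Unlike the class II genes it was at 12.90, 12.84 and 13.06 in the AS lines, above all 6 livers. Laptm5, a lysosomal protein of leukocytes, and the leukocyte receptor Cd84 were low in the lines. Cd84 was at 4.80, 4.92 and 4.84 there, against 9.70, 10.59 and 10.01 in the KO livers and 10.67, 10.34 and 10.39 in the WT livers. Ly6g, a granulocyte surface protein gene, lay at 4.66 to 5.34 in all 6 livers, below the array medians. A ranking of 19932 genes over 6 arrays finds close genes by chance, so the list is a description of these livers.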

How the data were processed

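RNA was measured on whole-transcript mouse arrays, 9 in all: 3 AS cell lines, 3 KO livers and 3 WT livers, each array 1 replicate as the titles number them. What the authors deposited is 1 log2 value per probe set and array, computed by RMA in oligo per the submitters' processing notes, which name no version. Since the arrays share nearly the same distribution, a change of most genes together cannot be seen. Of 35556 probe sets, 21789 had 1 gene in the platform annotation, 1621 several and 12146 were not in it; the IDs of 21698 were found in RefSeq, which changed 0 symbols. For 999 genes with several probe sets the one of highest mean was used, leaving 19938 genes.

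For each comparison its 6 arrays were fitted in R 4.3.3 with limma 3.58.1 (lmFit, eBayes, 2-sided, no covariates), and p-values were adjusted by Benjamini-Hochberg over the whole table, with 0.05 as threshold. Differences are of group means of log2 values, and members also had an exact permutation test. The procedure was tested on simulated data. The members and lists were chosen with earlier results of these data known. From the related gene lists the text names the genes past the threshold. Where none passed, it names the 3 of largest difference for the other class II genes and only some of the 3 for other lists. Of the antigen processing genes it names none of these 3 in KO against WT livers. It also names some of the first 3 markers of a cell type list, and the 10 nearest genes. Further genes were chosen after their values were seen, as were the genes that set WT replicate 3 apart. They are B2m, Ctsl, Ifi30, Cd40, Pdcd1lg2, Eif2s3y, Apob, Hnf4a, Cyp2e1, Tat, Tdo2, Ptprb, Flt4, Cd52, Rac2, Ms4a1, Pax5, Cr2, Ccr7 and Clec9a. Not measured, because their probe sets are shared, were H2-DMb2, H2-K1, H2-D1 and some marker genes. Tried besides were all arrays in 1 fit, a replicate block, an intensity trend, a filter on dim genes, 75th percentile scaling, repeated quantile normalization, other uses of probe sets, array weights, other thresholds and leaving out each array. Figures were drawn with matplotlib 3.10.9.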

Additional observations from a re-analysis of the deposited data

How the results depend on the processing

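All 6 members stayed past the threshold as lower in the AS lines under every alternative run in which they were measured, except that Ciita fails a minimum of 1 log2 unit; the filter on dim genes leaves Ciita out, and the median of the members is then -5.95 against the KO livers and -6.72 against the WT livers. Over all genes, that minimum left 2638 calls of 4275 against the KO livers and 3492 of 5715 against the WT livers. Leaving out 1 array gave 2281 to 4048 and 3397 to 5435. Calls were fewest without KO replicate 1 (2281), KO replicate 3 (2310), WT replicate 2 (3397) and WT replicate 3 (3556).

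In KO against WT livers the count of all genes, 0, became 2 with all arrays in 1 fit, 1 with every probe set tested on its own, 366 at an adjusted p under 0.10 and 5744 with array weights, which were lowest for WT replicate 1 (0.274) and KO replicate 2 (0.315). Leaving out 1 array gave 0 to 1949, the highest without KO replicate 2, and 60 without WT replicate 1. The count of members became 3 with array weights, where 9.22% of all genes passed as lower, and 0 to 3 with 1 array left out. Adjusted p in limma ranged from 0.0207 to 0.389 for H2-Aa, 0.0357 to 0.372 for H2-Ab1 and 0.0115 to 0.296 for H2-Eb1, and their differences stayed negative. With 1 array left out, H2-DMa ranged from -0.32 (KO replicate 2 out) to 0.20 (WT replicate 1 out), and was positive also with KO replicate 1 (0.09) or KO replicate 3 (0.01) out. Ciita ranged from -0.10 (KO replicate 2 out) to 0.18 (WT replicate 3 out), and was negative also with WT replicate 1 (-0.01) or WT replicate 2 (-0.03) out, with array weights (-0.035) and with 75th percentile scaling (-0.11). H2-Ea ranged from -0.84 (WT replicate 3 out) to 2.25 (WT replicate 1 out) and Cd80 from -0.74 (KO replicate 2 out) to 0.0081 (WT replicate 1 out), and Rfxap became -0.0003 with 75th percentile scaling. The cause was not tested. The median over all genes became -0.16 with that scaling and 0.17 with dim genes left out; for AS lines against WT livers it became -0.11 and 0.31.

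With the replicate block, 0 genes and 0 members passed in KO against WT livers, 3426 genes and 6 members in AS lines against KO livers, and 4494 genes and 6 members in AS lines against WT livers. Deviations of same-numbered arrays from their group means correlated at -0.39 to 0.43, with at least 1 pair under 0.1 in each comparison, so the numbers were not taken as a pairing. Of the related genes past the threshold, 10 of 25 against the KO livers and 15 of 27 against the WT livers kept their call under all alternatives. Against the KO livers the count of 25 became 16 when KO replicate 1 was dropped, and 14 when KO replicate 3 was; in KO against WT livers it was 0, and 14 with array weights, 1 without KO replicate 2 (Psme2) and 1 with WT replicate 1 dropped (Ifng).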
